A study of Mus musculus with 2 samples.

Results

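Genes of bile acid synthesis and conjugation were compared between liver RNA of normal mice and of diabetic db/db mice. The group was set by name and held 10 enzyme genes, of which 7 had a value among the 8551 genes of the deposited table. These were Cyp7a1, Cyp7b1, Cyp8b1, Cyp27a1, Hsd3b7, Akr1d1 and Slc27a5. Cyp39a1, Amacr and Baat were looked up by symbol and by Entrez identifier and were not analysed here.

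Both groups were male mice 9 weeks old, labelled with a C57BL/6 strain background, and their livers were taken about 3 h into the light phase. The normal mice are labelled wild type, and the diabetic mice are labelled db/db, a genotype without a working long form of the leptin receptor in all cells, which leads to overeating, obesity and type 2 diabetes. The loss is present from conception, so the effects of obesity, food intake and hyperglycaemia cannot be told apart. The study obtained its mice from a pair of suppliers without stating which group came from which, and whether liver RNA of several mice was pooled is not stated either. There was 1 library per group, so no difference below has a replicate check.

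Bile acids are made from cholesterol in hepatocytes. In the classic route, Cyp7a1 adds the first hydroxyl group to the sterol ring and sets the rate. In the alternative route, Cyp27a1 first oxidizes the side chain and Cyp7b1 then hydroxylates the ring. Both routes pass through Hsd3b7, which oxidizes the ring hydroxyl group and moves the double bond, and Akr1d1, which reduces that double bond. Cyp8b1 adds the hydroxyl group that makes cholic acid, and so sets the share of cholic acid in the pool. After the side chain is shortened in peroxisomes, Slc27a5 activates bile acids to CoA esters and Baat joins them to taurine or glycine. Rising bile acid levels repress Cyp7a1 and Cyp8b1 through the nuclear receptor Fxr (Nr1h4) and its target Shp (Nr0b2), and Cyp7a1 transcripts follow a daily rhythm.

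The assay counted short tags that start at a cut site of the enzyme DpnII, which recognizes GATC. The tag that the GATC nearest the 3′ end would give was read from the GENCODE M21 transcript (build GRCm38) of each gene that has a RefSeq counterpart. These are predicted tags, shown because they are the stretches on which the values below would rest, and the deposited table gives 1 summed value per gene and not the tags themselves. Capitals mark the DpnII site, and the 16 bases after it, a length chosen here, follow 5′ to 3′ on the transcript strand.
Cyp7a1: GATCcctaagatgacagtaa
Cyp7b1: GATCaatccagttggttttg
Cyp8b1: GATCtgtcatgctccccata
Cyp27a1: GATCctacatccattcggct
Hsd3b7: GATCttacgctggtctgctt
Akr1d1: GATCaacacgaatcgttttt
Slc27a5: GATCattgctgaccccctct
The tags of Cyp27a1 and Slc27a5 lay in the coding part and the other tags in the 3′ UTR. Only the Hsd3b7 tag, of these 7, occurred after a GATC in a transcript of another gene, the overlapping model Gm49388, so reads of Hsd3b7 and Gm49388 cannot be told apart by it. Over all 19603 genes with such a tag, 88.1% had one found in no other gene. The Cyp7a1 tag began 1134 bases from the 3′ end of its transcript, the Akr1d1 tag 102 bases and the Cyp7b1 tag 388 bases, against a median of 321 bases over those genes. Because the site decides how well a transcript is counted, levels were compared between libraries and not between genes.

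The unit is TPM, a gene's tags scaled to 1000000 clean tags. Clean tags numbered 10278531 for normal liver and 13508232 for diabetic liver, as the equal steps of the low values give, and each step is 1 read. A count of 0 allows a level of up to 3 reads, or 0.292 TPM for normal and 0.222 TPM for diabetic liver. Ratios are diabetic over normal, and 95% Clopper-Pearson intervals from the reads cover counting error only, since there was 1 library per group. Tags carried no molecular identifiers, so copies of 1 molecule cannot be told from separate molecules, and the intervals may be too narrow. A gene was called higher or lower when the values differed at least 1.5-fold, the fold threshold of the study. Over all listed genes the median log2 ratio was 0.25, and 34.4% of the genes were called higher and 15.3% lower. Scaling the libraries in 4 other ways shifted every log2 ratio by -0.31 to -0.25, and 21.9% to 24.0% of all genes were then called higher and 23.6% to 25.6% lower.

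Of the 7 enzyme genes, 2 were higher in diabetic liver (Cyp7a1 and Akr1d1), 3 were lower (Cyp7b1, Cyp27a1 and Hsd3b7) and 2 lay within 1.5-fold (Cyp8b1 and Slc27a5). Scaling the libraries otherwise left the same 2 and 3 genes called in all 4 cases. The lower genes made up 42.9% of the 7, against the 15.3% of all listed genes, and the higher genes 28.6%, against 34.4%. Under the 4 other scalings the shares of all genes were 23.6% to 25.6% lower and 21.9% to 24.0% higher. Either way, 5 of the 7 were called, against 49.7% of all genes. At 2-fold, 2 were higher and 1 lower (Cyp7b1), with 18.6% and 6.81% of all genes past that threshold. The median log2 ratio of the 7 genes was -0.14, and they spread from -4.06 to 2.16. The genes of the alternative route, Cyp27a1 and Cyp7b1, were both lower, whereas the first gene of the classic route was higher.

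**Figure D1:**
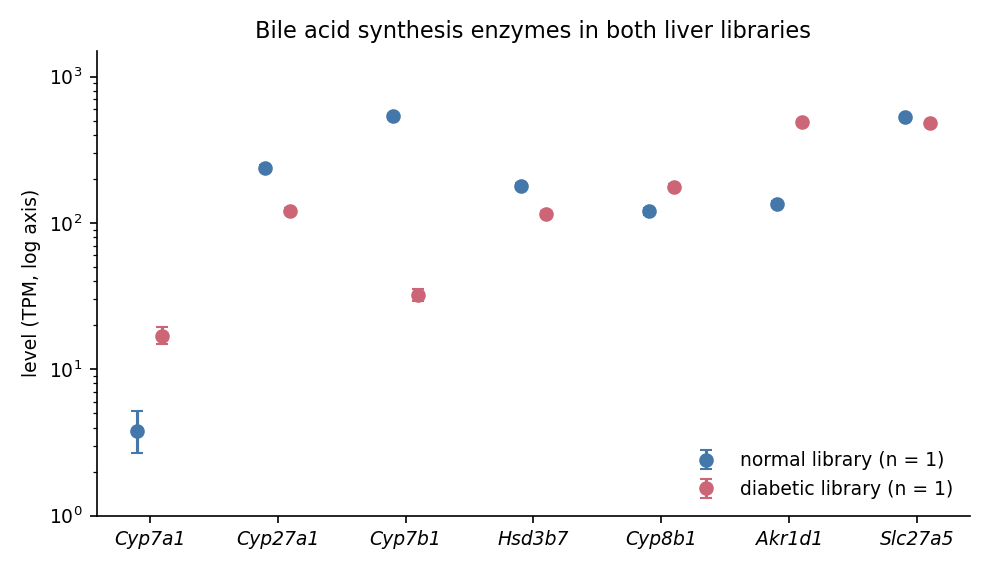
Level of each enzyme gene in TPM (log axis) in normal liver (blue) and diabetic liver (red), 1 library per group, with 95% Poisson intervals of the reads. Cyp7b1 dropped from 538 to 32.2 TPM, whereas Cyp7a1 and Akr1d1 were higher in diabetic liver.

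Cyp7b1 (Entrez 13123), the oxysterol 7α-hydroxylase of the alternative route, was counted at 538 TPM in normal and 32.2 TPM in diabetic liver. It had 5532 and 435 reads. It was 16.7-fold lower, with a log2 ratio of -4.06 (95% counting interval, -4.21 to -3.92). Among all listed genes, 16 had a lower log2 ratio. Of 652 genes whose mean reached 100 TPM, 0 had a lower one, although Mup20, described further on, equalled it to 2 decimals. With counts of liver tissue, fewer cells that express a gene and less RNA per cell cannot be told apart.

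Cyp27a1 (Entrez 104086), the mitochondrial sterol hydroxylase that supplies Cyp7b1 with oxysterols and also acts on the side chain in the classic route, went the same way. It was counted at 239 TPM in normal and 121 TPM in diabetic liver, with 2455 and 1636 reads. It was 1.97-fold lower, a log2 ratio of -0.98 (95% counting interval, -1.07 to -0.89). The log2 ratio of Cyp7b1 minus that of Cyp27a1 was -3.08 (95% interval, -3.25 to -2.91).

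Cyp7a1 (Entrez 13122), the rate-limiting 7α-hydroxylase of the classic route, was counted at 3.79 TPM in normal and 16.95 TPM in diabetic liver. These values rested on 39 and 229 reads, by far the fewest of the 7 genes. It was 4.47-fold higher, a log2 ratio of 2.16 with an interval of 1.66 to 2.69, the widest of the 7. Under the 4 other scalings the log2 ratio was 1.86 to 1.91. Within each library, 142 Cyp7b1 tags were counted per Cyp7a1 tag in normal liver and 1.90 in diabetic liver. The balance thus moved toward Cyp7a1 by 6.22 on the log2 scale (95% interval, 5.70 to 6.77), a change that does not depend on the scaling between libraries.

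Akr1d1 (Entrez 208665), the steroid 5β-reductase that gives bile acids their bent ring system, was counted at 135 TPM in normal and 489 TPM in diabetic liver. With 1384 and 6602 reads it was 3.63-fold higher, a log2 ratio of 1.86 (95% counting interval, 1.78 to 1.94). The ratios of Akr1d1 and Cyp7a1 were not distinguishable at this depth. Their log2 ratios differed by 0.30, with a 95% interval of -0.20 to 0.84. Akr1d1 also reduces steroid hormones, so it is not particular to bile acids.

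Hsd3b7 (Entrez 101502), the C27 3β-hydroxysteroid dehydrogenase that acts before Akr1d1, was counted at 180 TPM in normal and 115 TPM in diabetic liver. The reads were 1849 and 1557, and its predicted tag is the one shared with Gm49388. It was 1.56-fold lower, a log2 ratio of -0.64 (95% counting interval, -0.74 to -0.54), an interval that took in the 1.5-fold threshold. Hsd3b7 and Akr1d1, which catalyze successive steps, thus differed in opposite directions between the libraries. The log2 ratio of Hsd3b7 minus that of Akr1d1 was -2.50 (95% interval, -2.63 to -2.37).

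Cyp8b1 (Entrez 13124), the sterol 12α-hydroxylase, was counted at 120 TPM in normal and 177 TPM in diabetic liver, with 1232 and 2391 reads. Its 1.48-fold ratio lay just under the threshold, with a log2 ratio of 0.56 (95% counting interval, 0.46 to 0.66). The 4 other scalings brought the log2 ratio to 0.26 to 0.31, still above 0. Relative to Cyp7a1 in the same library, Cyp8b1 was 3.03-fold lower in diabetic liver. Relative to Cyp27a1 it was higher, by 1.54 on the log2 scale (95% interval, 1.41 to 1.68).

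Slc27a5 (Entrez 26459), the bile acyl-CoA synthetase, also known as the fatty acid transport protein Fatp5, was counted at 528 TPM in normal and 478 TPM in diabetic liver. It had 5425 and 6454 reads and a log2 ratio of -0.14 (95% counting interval, -0.20 to -0.09). Of the 7 genes it lay closest to equal on the deposited scale. Under the 4 other scalings its log2 ratio was -0.45 to -0.40, still within 1.5-fold.

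**Figure D2:**
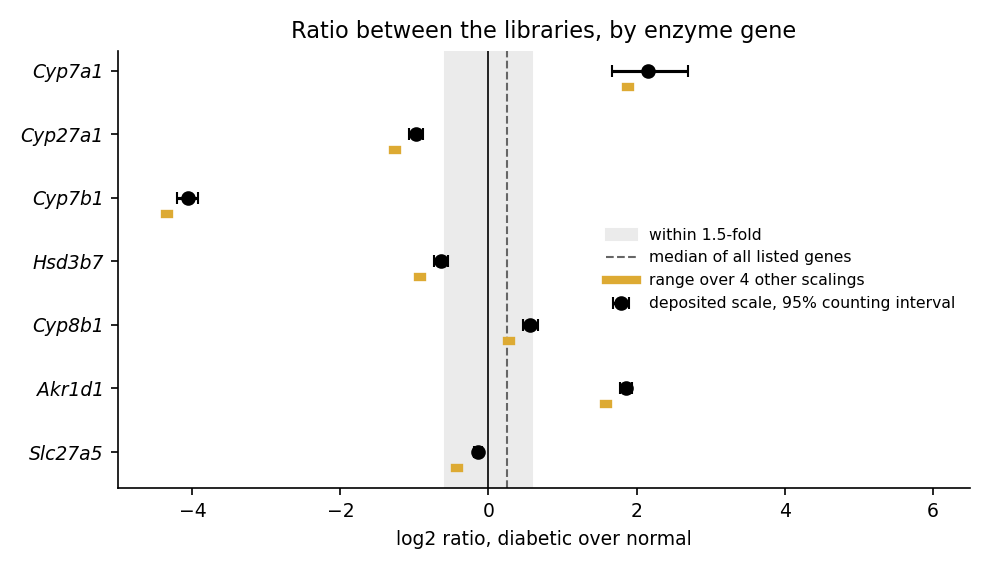
Log2 ratio of each enzyme gene (diabetic over normal) with its 95% counting interval in black, and the range under 4 other scalings in yellow. The grey band marks ratios within 1.5-fold and the dashed line the median of all listed genes, 0.25. Cyp27a1, Cyp7b1 and Hsd3b7 lie to the left of the band and Cyp7a1 and Akr1d1 to its right.

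When reads were set against clean tags in a two-sided exact binomial test, all 7 genes differed between the libraries at a false discovery rate (FDR) under 0.001 after Benjamini-Hochberg adjustment over all listed genes. Slc27a5 had the highest FDR of them in this exact test, 3.0e-07. It is a test of these libraries and not of the conditions, since the variation between mice was not measured. By this test alone 37.1% of all listed genes passed. With the 1.5-fold threshold added, the calls of the 7 genes were the same, whereas 22.5% of all genes were called higher and 8.07% lower. Of the 21 pairs among the 7 genes, 20 had a 95% interval for the difference of their log2 ratios that left out 0, and the exception was Cyp7a1 with Akr1d1.

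**Figure D3:**
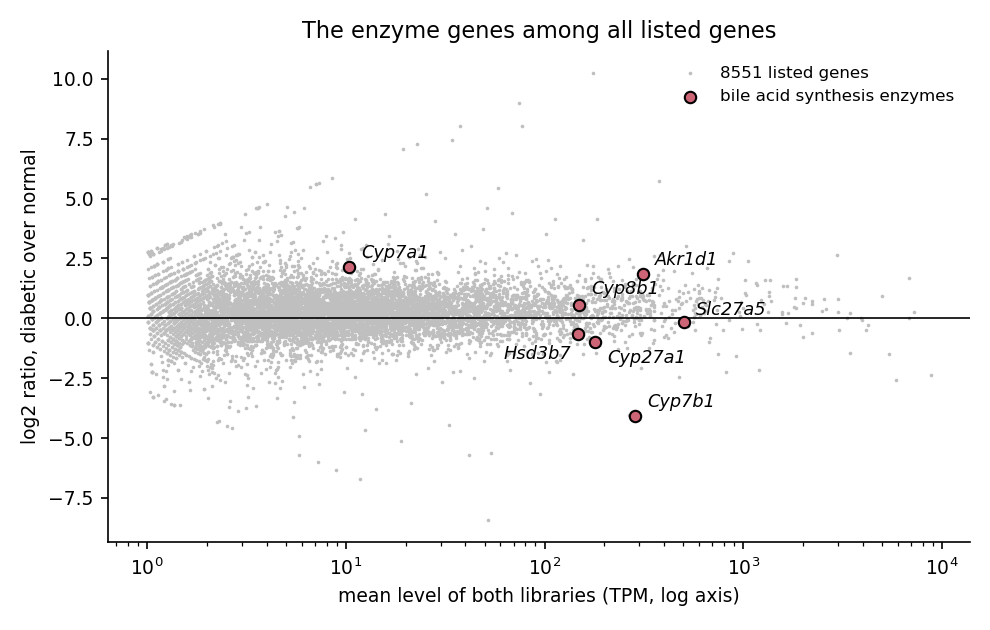
Log2 ratio (diabetic over normal) against the mean level of both libraries (TPM, log axis) for all 8551 listed genes in grey and the 7 enzyme genes in red. Cyp7b1 lies below all other genes that averaged 100 TPM or more, and Cyp7a1 has a mean of 10.4 TPM.

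Together the 7 genes took 17916 reads of normal and 19304 of diabetic liver, 1743 and 1429 TPM. Without Cyp7b1 the sum was 1205 TPM in normal liver and 1397 TPM in diabetic liver, a log2 ratio of 0.21. The direction of that sum depended on the scaling, since the log2 ratio was -0.09 to -0.04 under the 4 other scalings, while that of all 7 genes was -0.29 on the deposited scale and -0.59 to -0.54 under the others. Cyp7b1 made up 30.9% of the enzyme tags in normal liver (95% Wilson interval, 30.2% to 31.6%) and 2.25% in diabetic liver (2.05% to 2.47%). Akr1d1 made up 7.72% (7.34% to 8.13%) and 34.2% (33.5% to 34.9%) in the same order. The share of Slc27a5 moved little, from 30.3% (29.6% to 31.0%) to 33.4% (32.8% to 34.1%). Cyp7a1 held 0.218% (0.159% to 0.297%) and 1.19% (1.04% to 1.35%), a small share in both libraries. These are shares of tags, and shares of transcripts may differ with the DpnII site of each gene.

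**Figure D4:**
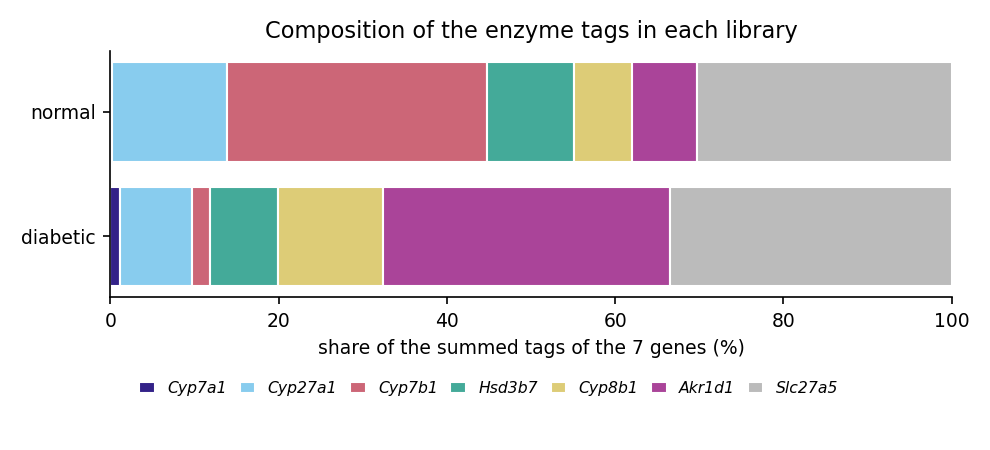
Share of each gene in the summed tags of the 7 enzyme genes (%), in normal liver (top) and diabetic liver (bottom). The Cyp7b1 block shrinks from 30.9% to 2.25% and the Akr1d1 block widens from 7.72% to 34.2%.

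A list of other enzymes and carriers of the pathway held 12 genes, of which 11 had a value. Of these, 6 were higher, 1 was lower and 4 lay within 1.5-fold, with a median log2 ratio of 0.74. Among the 6 is Cyp46a1, described further on, whose direction was fixed by the 1 TPM minimum for listing. Over all listed genes 34.4% were higher and 15.3% lower, and the median was 0.25. Abcd3, a transporter that brings bile acid precursors into peroxisomes, was counted at 125 and 268 TPM, a log2 ratio of 1.11. Acot8, a peroxisomal acyl-CoA thioesterase, was counted at 42.6 and 77.7 TPM, a log2 ratio of 0.87. With the other scalings 3 to 4 of the 11 genes stayed higher, and the log2 ratio of Acot8 was 0.56 to 0.61, on both sides of the threshold.

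A pair of P450 genes that act on the finished bile acids went opposite ways. Cyp2c70, which makes the muricholic acids that are typical of mice, was counted at 184 TPM in normal and 54.8 TPM in diabetic liver, a log2 ratio of -1.75. Cyp2a12, which rehydroxylates secondary bile acids that return from the gut, was at 141 and 308 TPM, a log2 ratio of 1.12. Both calls stood under the 4 other scalings, with their common shift.

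Of the 4 genes that supply taurine for conjugation, 0 were higher and 2 were lower, against 34.4% and 15.3% of all listed genes. Slc6a6, the taurine transporter, was counted at 31.0 and 13.7 TPM, a log2 ratio of -1.18. Ado, which oxidizes cysteamine on the way to taurine, was counted at 9.92 and 4.96 TPM, a 2-fold difference. The other two, Cdo1 and Csad, which make taurine from cysteine, had log2 ratios of 0.13 and -0.04.

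Of 14 genes that control the pathway 10 had a value, of which 4 were higher and 1 lower, with a median log2 ratio of 0.47. These counts were near the shares of all listed genes, 34.4% higher and 15.3% lower. Nr1h4, the bile acid receptor Fxr, was counted at 56.1 TPM in normal and 93.7 TPM in diabetic liver (log2 ratio 0.74). Nr0b2, the repressor Shp, was at 60.6 and 43.7 TPM (log2 ratio -0.47). Neither call was independent of the scaling. Under the 4 other scalings Nr1h4 lay within 1.5-fold, at 0.43 to 0.49, and Nr0b2 was called lower, at -0.78 to -0.72.

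Hnf4a, an activator of Cyp7a1, Cyp8b1 and other hepatocyte genes, was counted at 96.8 TPM in normal and 46.2 TPM in diabetic liver, a log2 ratio of -1.07. The receptors of the intestinal hormone Fgf15, which represses Cyp7a1, lay within 1.5-fold on the deposited scale, with log2 ratios of -0.09 for Fgfr4 and 0.50 for its coreceptor Klb, the latter from 21 and 39 reads. Nr1h3, the oxysterol receptor Lxrα, had a log2 ratio of -0.04. Mafg, a repressor of bile acid synthesis genes, went from 5.84 to 23.3 TPM (log2 ratio 2.00).

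Among the nuclear receptors that sense fatty acids and xenobiotics, Ppara had a log2 ratio of 1.17 and Nr1i3, the receptor Car, one of 2.44, from 32.5 to 176 TPM. Nr1i2, the receptor Pxr, had a log2 ratio of 0.44.

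Cyp7a1 is rhythmic, and both libraries come from 1 time of day. Of 6 genes for rhythmic transcription factors that act on Cyp7a1 or on its rhythm, 5 had a value and all 5 were higher. Their median log2 ratio was 1.55, and 34.4% of all listed genes were higher. Dbp, an activator that binds the Cyp7a1 promoter, had 0 reads in normal liver and 191 in diabetic liver, at least 48.4-fold higher against 3 reads. Since listed genes have a mean of at least 1 TPM, Dbp is listed only through its diabetic value, which fixed its direction. Tef, a related activator, went from 9.34 to 54.0 TPM (log2 ratio 2.53). Nr1d1, the repressor Rev-erbα, went from 13.1 to 38.5 TPM (log2 ratio 1.55). A different phase of the rhythm and a different daily mean cannot be told apart with 1 time point, and the part of these genes in the Cyp7a1 result was not tested. With each other scaling 4 of the 5 stayed higher, and Hlf, with log2 ratios of 0.52 to 0.57, did not.

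Cyp7b1 is known for higher expression in male than in female mouse liver. Of 18 other male-biased liver genes listed, 8 had a value and all 8 were lower in diabetic liver, with a median log2 ratio of -3.92 and a range of -8.43 to -2.24. Their summed level was 11131 TPM in normal liver and 1793 TPM in diabetic liver, of which Mup3, a major urinary protein gene, made up 9993 and 1698 TPM. Each of the 8 had reads in both libraries. Hsd3b5, a steroid-reducing enzyme of male liver, was counted at 103 and 0.30 TPM, the latter from 4 reads (log2 ratio -8.43). With a mean of at least 1 TPM required, Hsd3b5 is listed only through its normal value, which fixed its direction. Of 16 female-biased genes, 12 had a value and all 12 were higher, with 7 of them at 0 reads in normal liver. The median log2 ratio was 5.79 when those 7 are set to 3 reads. The deposited genes have a mean of at least 1 TPM, so those 7 are listed only through their diabetic values. The direction of those 7 was thus fixed in advance. The same holds for Cyp2b10, at 0.39 TPM (4 reads) in normal liver and 68.25 TPM in diabetic liver. Sult1e1, the estrogen sulfotransferase, was one of these 7, and its log2 ratio was at least 8.01. The summed level of the 12 genes was 38.7 TPM in normal liver and 1523 TPM in diabetic liver. That sum takes in the genes listed only through their diabetic values. The genes whose direction was not fixed, Cyp3a16, Fmo2, Cyp17a1 and Cyp4a14, had log2 ratios of 1.06, 2.44, 5.44 and 5.72. All these calls stood under the 4 other scalings. Over all listed genes, 15.3% were called lower and 34.4% higher on the deposited scale. Like the other lists, both were chosen with earlier results of these data known, so their shared directions are not independent of these data. Both labels give male mice, and the part of these genes in the Cyp7b1 result was not tested.

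Mup20, the male urinary pheromone protein, had the log2 ratio nearest to that of Cyp7b1 among the 363 other genes with a mean level within 2-fold of it. It was counted at 502 TPM in normal and 30.1 TPM in diabetic liver, a log2 ratio of -4.06. Mup20 and Mup3 belong to a multigene family. The tag predicted for each occurred in no other gene of the annotation, but how reads shared between family members were counted is not given in the sources used here. The next nearest genes were Apob, at -2.45, and Nudt7, at -2.09, so that no other gene of like level came close. For Cyp7a1, the nearest of 2955 genes of like level were Exoc5, Myo9b and Fbxl12, with log2 ratios of 2.15 to 2.16. With 1 library per group this likeness rests on a single ratio per gene.

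**Figure D5:**
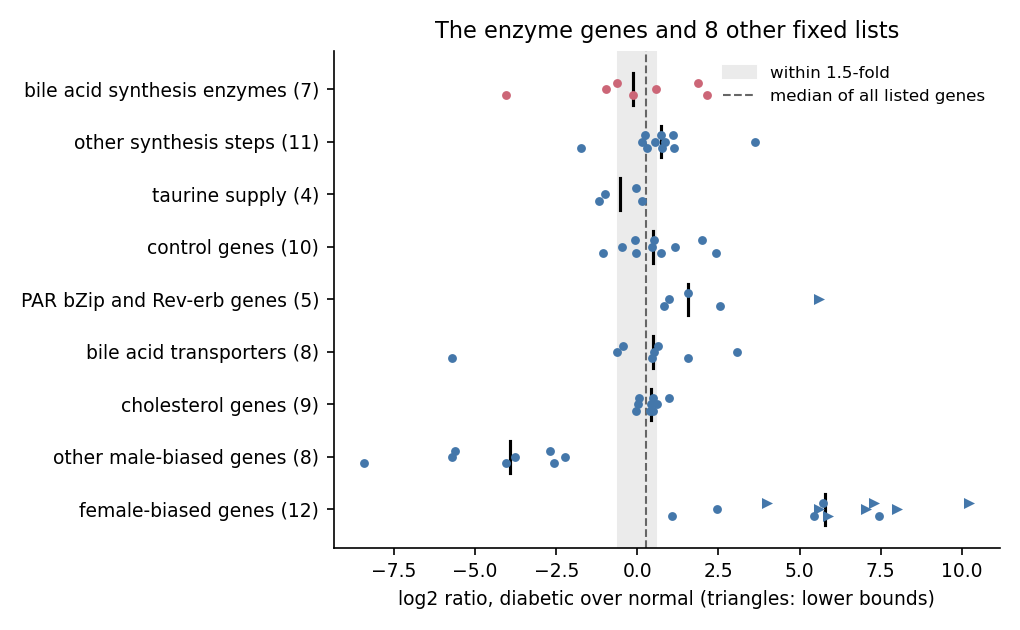
Log2 ratio (diabetic over normal) of the enzyme genes (red) and of the genes of 8 other lists (blue), 1 point per gene, with the number of genes with a value in brackets, list medians as black bars and lower bounds as triangles. The grey band marks ratios within 1.5-fold and the dashed line the median of all listed genes. The male-biased genes have a median of -3.92 and the rhythmic factors one of 1.55. The part of either list in the result of an enzyme gene was not tested.

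Of 10 bile acid transporter genes of the hepatocyte, 8 had a value. Abcb11, the bile salt export pump, was counted at 230 TPM in normal and 148 TPM in diabetic liver, a log2 ratio of -0.64. Slco1a1, an uptake carrier that is also male-biased, was at 81.8 and 1.55 TPM, a log2 ratio of -5.72. Slco1a4, a related uptake carrier, was counted at 6.81 and 20.3 TPM, a log2 ratio of 1.57. In all, 3 were higher and 2 lower on the deposited scale, and 2 higher and 3 lower under each of the 4 other scalings. Over all listed genes 34.4% were higher and 15.3% lower, or 21.9% to 24.0% and 23.6% to 25.6% under the other scalings. The higher genes were Slco1a4, Abcc4 and Slc51b. Abcc4 was counted at 0.58 and 4.89 TPM. With a mean of at least 1 TPM required, Abcc4 is listed only through its diabetic value, which fixed its direction. Slc51b rested on 19 and 39 reads, and its counting interval, -0.18 to 1.52, took in equal levels.

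Of 10 genes of cholesterol supply and competing sterol routes, 9 had a value, 2 were higher and 0 lower, with a median log2 ratio of 0.42. Over all listed genes 34.4% were higher and 15.3% lower. The higher genes were Abcg5 and Abcg8, which export cholesterol into bile as a dimer. Abcg5 went from 11.1 to 21.6 TPM (log2 ratio 0.96) and Abcg8 from 41.1 to 62.0 TPM (log2 ratio 0.60). After any of the other scalings Abcg8 lay within 1.5-fold, at 0.29 to 0.34.

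Markers were used to check the tissue. All 8 hepatocyte markers had a value, with a summed level of 16432 TPM in normal liver and 16842 TPM in diabetic liver. Their median log2 ratio was 0.02 on the deposited scale and -0.29 to -0.23 under the 4 other scalings. Macrophage markers, given because macrophages also express Cyp27a1, summed to 327 and 194 TPM, and most of that difference was C1qa, at 176 and 50.7 TPM. Of the 8 macrophage markers with a value, 4 were lower and 1 higher, against 15.3% and 34.4% of all listed genes. Their median log2 ratio was -0.71, and under each of the 4 other scalings 5 were lower and 0 higher. C1qb was the one called higher on the deposited scale, at 38.1 and 57.8 TPM. None of the 8 was at 0 reads in either library. Their part in the Cyp27a1 result was not tested. Endothelial markers summed to 114 and 103 TPM, stellate cell markers to 107 and 149 TPM. Of the 7 endothelial markers, 2 were higher (Kdr and Lyve1) and 1 lower (Clec4g), against 34.4% and 15.3% of all listed genes. Under the other scalings 0 to 2 of them were higher and 2 lower. Of 5 stellate cell markers with a value, 1 was higher (Col1a1) and 1 lower (Reln), under the other scalings too. Of 7 cholangiocyte markers, 3 had a value. Spp1 was counted at 57.2 and 103 TPM, whereas Krt7, at 1.07 and 1.18 TPM, and Epcam, at 3.21 and 3.04 TPM, lay within 1.5-fold, and the median log2 ratio was 0.14, or -0.16 to -0.11 under the other scalings.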

How the data were processed

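Liver poly(A) RNA of normal and db/db mice was profiled with DpnII tags, 1 library per group, grouped by the sample titles. The authors removed adaptors, compared high quality clean tags with RefSeq and deposited values that they call TPM, which are RPM values (tags per 1000000 clean tags), with 0.01 in place of 0 and genes with a mean under 1 left out. The submitters' processing notes name the build mm9, so no coordinates were taken from GRCm38. The aligner is not given in the sources used here.

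Whole reads were recovered from the steps of the values: within 0.006 TPM of a whole number of reads lay 8513 of 8513 values above 0.01 in the normal library and 8536 of 8537 in the diabetic library, and within 0.005 TPM 8511 and 8535. Fold changes used the deposited values. Where 1 library had 3 reads or fewer, 3 reads were used, which gives a bound. The exact binomial test doubled the smaller tail. Intervals for pairs were conditional odds ratio intervals. Columns of other samples numbered 0.

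The members and lists were chosen with earlier results of these data known. Named genes were all members, all control genes, from every other list up to 4 genes that differed 1.5-fold or more, averaged 5 TPM or more and had the largest absolute log2 ratios, and the 3 genes nearest to the extreme members. Cdo1, Csad, Hlf, Cyp46a1, Mup3, Abcc4, Slc51b, C1qb, Krt7 and Epcam were named after their values were seen. So were Cyp3a16, Fmo2, Cyp17a1, Cyp4a14 and Lyve1. Alternatives were scaling to the sum of the listed genes, TMM (trimming 30% of log ratios and 5% of abundances), the median ratio over genes averaging 10 TPM or more, the upper quartile, a pseudocount of 0.1 or 1 TPM, leaving out genes that averaged under 5 TPM, and a fold of 2. Scripts were tested on simulated tags. Tests ran in scipy 1.17.1 with numpy 2.4.6 under Python 3.11.15, tables in pandas 2.3.3 and plots in matplotlib 3.10.9.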

Additional observations from a re-analysis of the deposited data

How the results depend on the processing

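The number of enzyme genes called higher was 2, and it stayed 2 under 4 scalings, both pseudocounts, the removal of genes averaging under 5 TPM, a 2-fold threshold and the added exact test. The number called lower was 3 under the same alternatives except the 2-fold threshold, where it was 1, since Cyp27a1 at 1.97-fold and Hsd3b7 at 1.56-fold then lay inside it. All 7 genes passed the exact test under every scaling. Over scalings and pseudocounts the log2 ratio ranged from 1.86 to 2.13 for Cyp7a1, from -4.37 to -4.02 for Cyp7b1, and from 0.26 to 0.56 for Cyp8b1. No called value changed its sign under these alternatives. Depth limits Cyp7a1 most, with 39 reads in the normal library. No paired analysis was possible because there is 1 library per group, and for the same reason no replicate could be left out.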

Other observations

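Cyp46a1, the cholesterol 24-hydroxylase best known from neurons, was counted with 5 reads for normal and 81 for diabetic liver. The log2 ratio was 3.61 (95% interval, 2.34 to 5.28), and the level stayed low, at 0.49 and 6.00 TPM. Listed genes have a mean of at least 1 TPM, so Cyp46a1 is listed only through its diabetic value. Its direction was thus fixed in advance.

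The predicted tags of the 3 enzyme genes without a value, Cyp39a1, Amacr and Baat, each occurred in no other gene of the annotation. They began 471, 37 and 315 bases from the 3′ end of the transcript.

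Apob, one of the hepatocyte markers, was counted at 804 TPM for normal and 147 TPM for diabetic liver (log2 ratio -2.45), while Cps1 went from 130 to 317 TPM (log2 ratio 1.28). Single hepatocyte markers thus differed in both directions although their sum was close on the deposited scale.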
